A study of Drosophila melanogaster with 24 samples.

Results

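The genes described here encode the main enzymes with which the adult fly midgut splits protein and short sugar chains: 13 Jonah proteases, 9 trypsins and 10 maltases of *Drosophila melanogaster*. They were chosen by name, as every probe set whose single gene symbol began with Jon and a digit, began with Mal-A or Mal-B, or ended with Try. The reference annotation lists 37 genes with such names, and 32 of them had a probe set listed under that symbol alone, out of 11982 genes with a probe set of their own. Each of the 32 had 1 probe set, and Jon99Cii, Jon99Ciii, Jon99Fii, deltaTry and gammaTry had no probe set listed under that symbol. All 32 had a mean above 4 log2 units over 23 arrays, so that no gene was lost to a filter on low values, although Jon66Ci and Jon66Cii were close to that level with means of 5.20 and 4.74.

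RNA of whole males from a laboratory population of field origin was hybridised to Affymetrix arrays, with 3 arrays for each of 8 groups. The flies developed and then lived as adults at a mean of 15 or 25 °C, and rearing here covers both stages. At each mean the temperature was either constant or fluctuating (12 to 20 °C and 22 to 30 °C, respectively). The males were 6 days old, were held in vials of 20, and all had spent 18 h at 20 °C. They were then ramped by 0.1 °C per minute up to 35 °C or stayed in a bath at 20 °C meanwhile, and both were frozen when the ramp ended. Each combination of mean temperature and regime was run in a cabinet of its own, so cabinet cannot be told apart from mean temperature or from regime. Ramped flies shared 1 water bath and the others a control bath, so bath and ramp cannot be told apart either. The p-values measure the spread between arrays of flies from 1 cabinet and 1 bath.

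Values are GC-RMA expression levels on a log2 scale, on which a difference of 1 is a doubling. The third array of the 15 °C fluctuating flies ramped to 35 °C was left out, since its correlations with the remaining 23 were 0.208 to 0.216 where those among the 23 were 0.969 to 0.998. The first array of the 15 °C constant flies at 20 °C was higher than the other 2 of its group by a median of 5.18 over 18 genes of the female egg shell and yolk. In that array 8 of the 10 maltases were lower than in both other arrays of the group (median difference -0.37), and the medians were -0.25 for the trypsins and 0.17 for the Jonah genes. Without this array the averaged calls of Mal-B1 (mean temperature) and Jon65Aii (regime) were lost, and those of alphaTry and Jon99Ci (lower under fluctuation) and kappaTry (lower after the ramp) were gained.

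Serine endopeptidases of the trypsin and chymotrypsin type are secreted by midgut enterocytes as inactive precursors and cut dietary protein into peptides. Trypsins cut next to lysine or arginine, and the Jonah genes encode a fly family of chymotrypsin-like proteases of the same fold. Maltases are alpha-glucosidases that release glucose from maltose and other short sugars. The transcripts of such enzymes are known to follow diet and the nutrient state of the fly, and many of the genes lie side by side as products of tandem duplication.

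The members fell into a few runs of neighbours. Mal-A1 to Mal-A8 stood next to each other on arm 2R, as did the 8 trypsins lambdaTry, kappaTry, zetaTry, etaTry, thetaTry, alphaTry, epsilonTry and betaTry, with iotaTry close by on the same arm. The Jonah genes formed runs of 3 (Jon25B, arm 2L), 4 (Jon65A, arm 3L) and 2 (Jon66C, arm 3L), and Jon44E, Jon74E, Jon99Ci and Jon99Fi stood apart from them. Runs were formed from the 32 members alone, so the 5 genes without a probe set, among them Jon99Cii, Jon99Ciii and Jon99Fii, were not placed. Mal-B1 and Mal-B2 were neighbours on arm 2L. The values of the 32 genes over the 23 arrays lay between 4.35 and 13.63. Probes of near-identical neighbours can bind each other's transcripts, and how far that happened here was not tested.

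**Figure D1:**
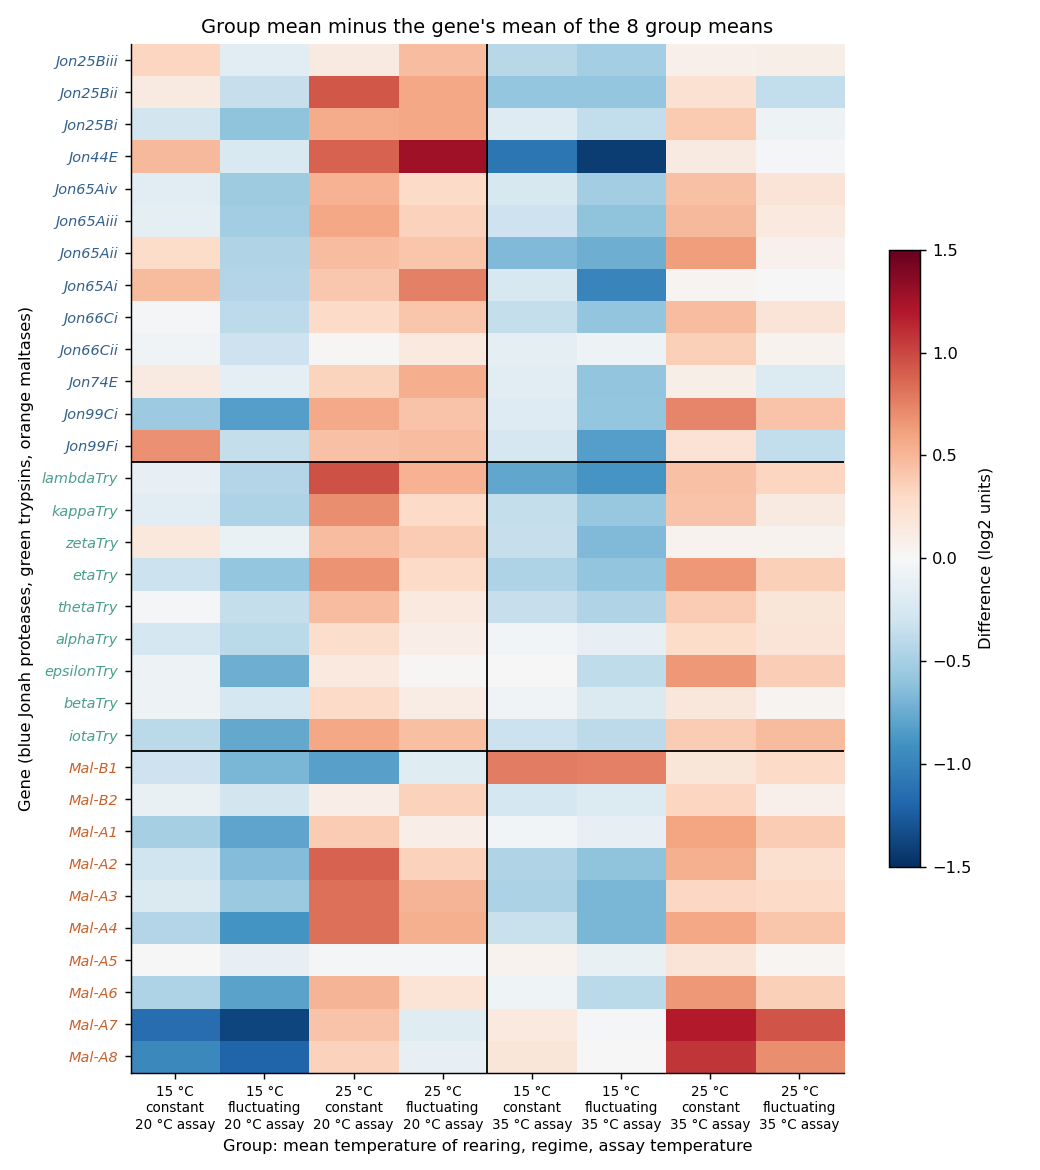
Each row is a gene and each column a group, named by mean temperature of rearing, regime and assay temperature. Colour gives the group mean minus the mean of the gene's 8 group means in log2 units. Most rows are redder in the 25 °C columns than in the 15 °C ones, and from left to right of the vertical line, which separates unramped from ramped flies, Jon44E turns towards blue and Mal-A7, Mal-A8 and Mal-B1 towards red.

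Mean temperature of rearing moved nearly all of these genes in 1 direction. In flies from 25 °C 21 of the 22 proteases and 8 of the 10 maltases were higher than in flies from 15 °C, averaged over the 4 pairs of groups that shared regime and assay temperature (limma on 23 arrays, adjusted p under 0.05). Over all probe sets 28.9% were higher and 27.1% lower in that comparison. The median difference was 0.68 log2 units for the 13 Jonah genes, 0.59 for the 9 trypsins and 0.91 for the 10 maltases, where the median over all 18769 probe sets was 0.0026. Whole flies were extracted, so more midgut cells and more RNA per cell cannot be told apart.

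The midgut markers moved the same way. Of 13 listed midgut genes 8 were measured, and 7 were higher and 1, Peritrophin-A of the gut lining, was lower at 25 °C, with a median difference of 0.74. Their mean level was 7.60 to 8.07 in the arrays from 15 °C, against 8.07 to 8.65 in those from 25 °C. PGRP-SC2, a peptidoglycan-degrading enzyme of the gut, was higher by 1.41 ± 0.061 (SE), and the enterocyte gene mex1 by 0.33 ± 0.071. In the same comparison 10 of 10 testis genes, 8 of 9 measured genes of the male accessory gland and 5 of 5 measured muscle genes were lower, and 4 of 5 fat body genes were higher. The part of tissue proportions in the differences of the digestive genes was not tested.

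Among the Jonah genes the largest increases that had 1 sign in all 4 pairs of groups were those of Jon44E and Jon99Ci. Jon99Ci lay between 10.07 and 11.19 (median 10.58) in the 11 arrays from 15 °C, and between 11.06 and 12.17 (median 11.64) in the 12 from 25 °C. The ranges overlapped only at the top array from constant 15 °C and the bottom one from fluctuating 25 °C, both ramped. Jon99Ci was 2.11-fold higher at 25 °C (log2 difference 1.08 ± 0.099, adjusted p = 7.47e-09, limma), and it was called in each of the 4 pairs. Jon44E overlapped more widely, with 7.0 to 9.57 (median 8.28) at 15 °C and 8.34 to 10.19 (median 9.28) at 25 °C. Its average difference was 1.13 ± 0.13 (adjusted p = 2.81e-07), and it was called in 3 pairs but not in constant flies at 20 °C, where the difference was 0.41 (adjusted p = 0.230).

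The neighbours Jon65Aiii and Jon65Aiv were the Jonah genes in which no array from 15 °C reached the range of 25 °C. Jon65Aiii lay between 11.83 and 12.37 (median 12.09) at 15 °C and between 12.47 and 13.13 (median 12.90) at 25 °C. Jon65Aiv lay between 11.95 and 12.51 and between 12.58 and 13.19, respectively. The differences were 0.78 ± 0.054 (adjusted p = 1.24e-10) and 0.72 ± 0.054 (adjusted p = 4.18e-10). At the other end Jon66Cii was higher by 0.30 ± 0.082, and Jon99Fi, with a difference of 0.37 ± 0.19 (adjusted p = 0.104), was the protease that did not pass the test.

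All 9 trypsins were higher at 25 °C, by 0.30 in betaTry to 1.12 in lambdaTry. lambdaTry lay between 8.49 and 9.46 (median 8.92) in the arrays from 15 °C and between 9.58 and 10.53 (median 9.93) in those from 25 °C, so that the groups did not overlap. It was 2.17-fold higher (1.12 ± 0.073, adjusted p = 6.85e-11). The same separation held for etaTry, with 6.66 to 7.12 (median 6.74) against 7.51 to 8.24 (median 7.73) and a difference of 0.98 ± 0.059 (adjusted p = 2.12e-11). In all, the lowest array from 25 °C lay above the highest from 15 °C in 5 trypsins (lambdaTry, kappaTry, etaTry, thetaTry and iotaTry), in 2 Jonah genes and in 3 maltases (Mal-A2, Mal-A3 and Mal-A4), against 4.46% of all probe sets. The smallest differences among the 9 were those of alphaTry, 0.42 ± 0.052, and betaTry, 0.30 ± 0.052.

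The maltase cluster on 2R held the 2 largest averaged differences of the 32 genes, those of Mal-A7 and Mal-A4. Mal-A7 lay between 9.05 and 11.05 (median 9.97) at 15 °C and between 10.25 and 12.13 (median 11.47) at 25 °C, with an average difference of 1.19 ± 0.10 (2.29-fold, adjusted p = 2.48e-09). Mal-A4 lay between 8.21 and 9.17 (median 8.69) and between 9.36 and 10.23 (median 9.84), and Mal-A2 between 8.85 and 9.58 (median 9.10) and between 9.76 and 10.73 (median 10.11). Neither of the latter 2 genes overlapped between the mean temperatures, while Mal-A7 did, as it also moved with the ramp. Mal-A4 was higher by 1.18 ± 0.085 (adjusted p = 2.45e-10) and Mal-A2 by 1.0 ± 0.083 (adjusted p = 1.63e-09).

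Not all maltases followed. Mal-A5, in the middle of the cluster, lay between 9.76 and 10.14 at 15 °C and between 9.91 and 10.32 at 25 °C, and its difference of 0.08 ± 0.042 had a 95% confidence interval of -0.0062 to 0.17 (adjusted p = 0.108). Mal-B1 was lower at 25 °C by -0.26 ± 0.10 (adjusted p = 0.0375), the opposite of its neighbour Mal-B2, which was higher by 0.42 ± 0.052 (adjusted p = 4.45e-07). The call of Mal-B1 is weak: it was lost without any 1 of 13 of the 23 arrays (adjusted p up to 0.0774), among them the array with egg shell transcripts (adjusted p = 0.0589). Its 4 separate differences were -0.49 and -0.59 in constant flies (20 and 35 °C) and 0.51 and -0.47 in fluctuating flies, and only that of constant flies at 35 °C passed the test (adjusted p = 0.0218).

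**Figure D2:**
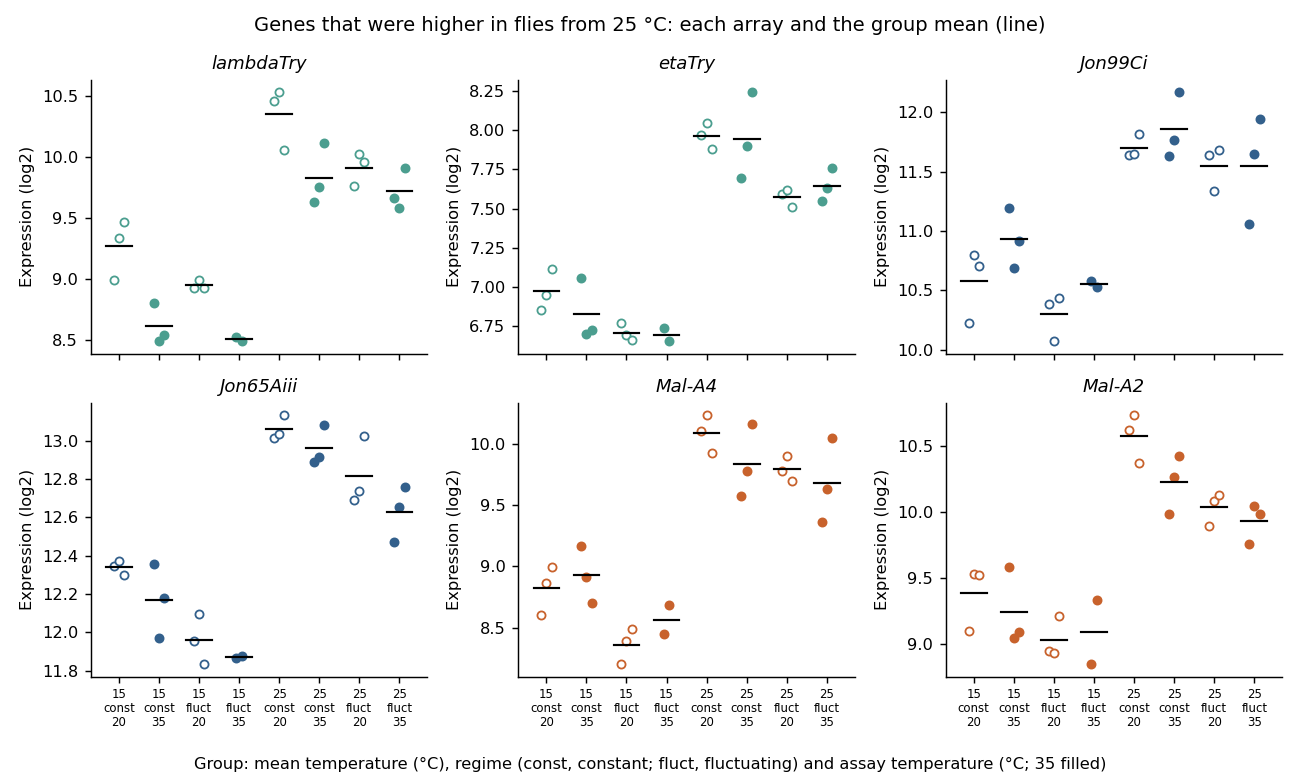
Expression (log2) of 6 genes in each array, by group, with open circles for flies frozen at 20 °C, filled circles for flies ramped to 35 °C, and a line at the group mean. In lambdaTry, etaTry, Jon65Aiii, Mal-A4 and Mal-A2 all 12 arrays from 25 °C lie above all 11 from 15 °C, and in Jon99Ci the ranges overlap.

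Taken pair by pair, the count of proteases called higher at 25 °C was 12 of 22 in constant flies at 20 °C, 21 in fluctuating flies at 20 °C, 18 in constant flies at 35 °C and 17 in fluctuating flies at 35 °C. The shares over all probe sets called higher were 22%, 17.6%, 21.9% and 13.7%. For maltases the counts were 7, 8, 8 and 7 of 10, and the only call in the other direction was that of Mal-B1 in constant flies at 35 °C, where 21.8% of all probe sets were lower. Called higher in all 4 pairs were 3 Jonah genes (Jon65Aiv, Jon65Aiii and Jon99Ci), 6 trypsins and 7 maltases. The share of all probe sets called higher in all 4 pairs at once was not counted, so these counts have no reference. Of the Jonah genes 5 of 13 were called in constant flies at 20 °C, with a median difference of 0.32, and 12 in fluctuating flies at 20 °C, with a median of 0.86. Single arrays moved the counts of the ramped flies, as leaving out 1 array at a time showed, a step added after the data were seen. Without the second array of ramped 15 °C fluctuating flies 10 proteases, 4 of them Jonah genes, were called higher in fluctuating flies at 35 °C, in place of 17 and 9. Without the third array of ramped 25 °C constant flies it was 12 proteases, 6 of them Jonah genes, in constant flies at 35 °C, in place of 18 and 10. The call of Mal-B1 there was lost without any 1 of 3 arrays (the first or second of ramped 15 °C constant flies, the second of ramped 25 °C constant flies). In constant flies at 20 °C 1 maltase was called lower without any 1 of 6 arrays: the third of unramped 15 °C constant, the first or second of unramped 15 °C fluctuating, the second of unramped 25 °C constant, and the first or second of unramped 25 °C fluctuating flies. 1 Jonah gene was called lower there without the third array of unramped 25 °C constant flies.

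Whether the effect of mean temperature differed between constant and fluctuating flies was tested as an interaction. None of the 32 genes passed (limma), against 2.91% of all probe sets. An unadjusted p under 0.05 was found for 5 members, and the share of all probe sets at that threshold was not counted. All 5 had a positive term, that is, 25 minus 15 °C was more positive in fluctuating than in constant flies. The smallest adjusted p was 0.0638 for Jon65Ai, with an interaction of 0.98 ± 0.29. This gene had arrays at 9.56, 9.18 and 9.56 in constant 15 °C flies at 20 °C, against 8.20, 8.86 and 8.51 in fluctuating 15 °C flies, while the 25 °C flies had 9.02, 9.22 and 9.85 and 9.91, 9.93 and 9.30, respectively.

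Averaged over all kinds of flies, the fluctuating regime was accompanied by lower values of both enzyme classes, by small amounts. On average over the 4 pairs of groups that shared mean and assay temperature, 10 of the 22 proteases (4 Jonah genes and 6 trypsins) and 7 of the 10 maltases were lower in fluctuating than in constant flies, and none was higher (limma, adjusted p under 0.05). Over all probe sets 6.41% were lower and 8.82% higher. The averaged difference was below 0 in 31 of the 32 genes, Mal-B1 being the exception at 0.09 ± 0.10. The medians were -0.28 for Jonah genes, -0.24 for trypsins and -0.27 for maltases, against -0.00049 for all probe sets. The sign was the same in all 4 pairs for 4 of 13 Jonah genes, 8 of 9 trypsins and 7 of 10 maltases. In unramped 25 °C flies 8 of 13 Jonah genes had a difference above 0, with a median of 0.02. In each gene the arrays of the 2 regimes overlapped, and the share of all probe sets in which they did was not counted.

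The named proteases were epsilonTry, Jon65Aii, Jon65Aiii and kappaTry. epsilonTry lay between 9.58 and 10.88 (median 10.03) in the 12 constant arrays and between 8.97 and 10.50 (median 9.80) in the 11 fluctuating ones, and fell by 0.36 ± 0.093 (adjusted p = 0.0138). The smallest adjusted p belonged to Jon65Aiii, which fell by 0.31 ± 0.054 (adjusted p = 0.000895). In the 15 °C flies at 20 °C its arrays were at 12.34, 12.37 and 12.30 under the constant regime and at 11.95, 12.09 and 11.83 under the fluctuating one. In the 25 °C flies after the ramp they were at 12.89, 12.91 and 13.08 against 12.47, 12.66 and 12.76. The regimes did not overlap within either of these pairs or in ramped 15 °C flies. They did in 25 °C flies at 20 °C, with 13.015 to 13.133 under the constant and 12.688 to 13.023 under the fluctuating regime. The share of all probe sets apart within such a pair was not counted. kappaTry fell by 0.30 ± 0.081 (adjusted p = 0.0166) and Jon65Aii by 0.35 ± 0.11 (adjusted p = 0.0400). Jon65Aii was no longer called without the array with egg shell transcripts (adjusted p = 0.0684), nor without any 1 of 10 others.

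Among maltases Mal-A2, Mal-A8 and Mal-A6 had the largest decreases with 1 sign in all pairs. Mal-A2 lay between 9.05 and 10.73 (median 9.78) in constant and between 8.85 and 10.13 (median 9.76) in fluctuating arrays, and fell by 0.33 ± 0.083 (adjusted p = 0.0112). Mal-A8 and Mal-A6 each fell by 0.32 (adjusted p = 0.0321 and 0.0121), and the call of Mal-A8 was lost without any 1 of 10 of the 23 arrays (adjusted p up to 0.0748). The other 4 maltases that were lower, Mal-A1, Mal-A3, Mal-A4 and Mal-A7, fell by 0.22 to 0.32. The call of Mal-A7 was lost without any 1 of 17 arrays (limma, adjusted p up to 0.0938). That of Mal-A3 was lost without any 1 of 16 (adjusted p up to 0.0891), while those of Mal-A1 and Mal-A4 held with each array left out. The midgut markers moved here as well, with 6 of the 8 measured genes lower (median -0.22), and 7 of 9 genes of the male accessory gland were also lower.

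The fluctuation result rested on the average over all pairs. No member passed the test in any single pair, where 2.16% (15 °C flies at 20 °C), 2.22% (15 °C at 35 °C), 0.938% (25 °C at 20 °C) and 1.05% (25 °C at 35 °C) of all probe sets did. At an unadjusted p under 0.05, 18, 5, 14 and 8 members were counted, of which 18, 5, 11 and 8 were lower. The share of all probe sets at that unadjusted threshold was not counted, and the percentages above are not its reference. The smallest adjusted p of any member was 0.0547 (limma), for Jon74E in the ramped 15 °C flies. With 1 array left out at a time, which was added after the data were seen, 0 to 2 proteases and 0 to 1 maltases were called lower in 15 °C flies at 20 °C, 0 to 1 proteases in ramped 15 °C flies, and 0 to 3 proteases in ramped 25 °C flies, with 3 when the last array of ramped 25 °C fluctuating flies was omitted. The 1 maltase came without the array with egg shell transcripts. Of the averaged calls, 6 of 10 in proteases and 4 of 7 in maltases held with each array left out in turn. Without the second array of ramped 15 °C fluctuating flies the count of proteases was 6, and it was 15 without the third array of ramped 25 °C fluctuating flies. In the same arrays the count of Jonah genes was 2 and 9. For maltases the count was 4 without any 1 of 8 arrays: replicates 2 and 3 of 15 °C constant flies at 20 °C, 1 of ramped 15 °C constant, 2 of unramped and 1 of ramped 15 °C fluctuating, 3 of ramped 25 °C constant, and 1 of both unramped and ramped 25 °C fluctuating flies.

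**Figure D3:**
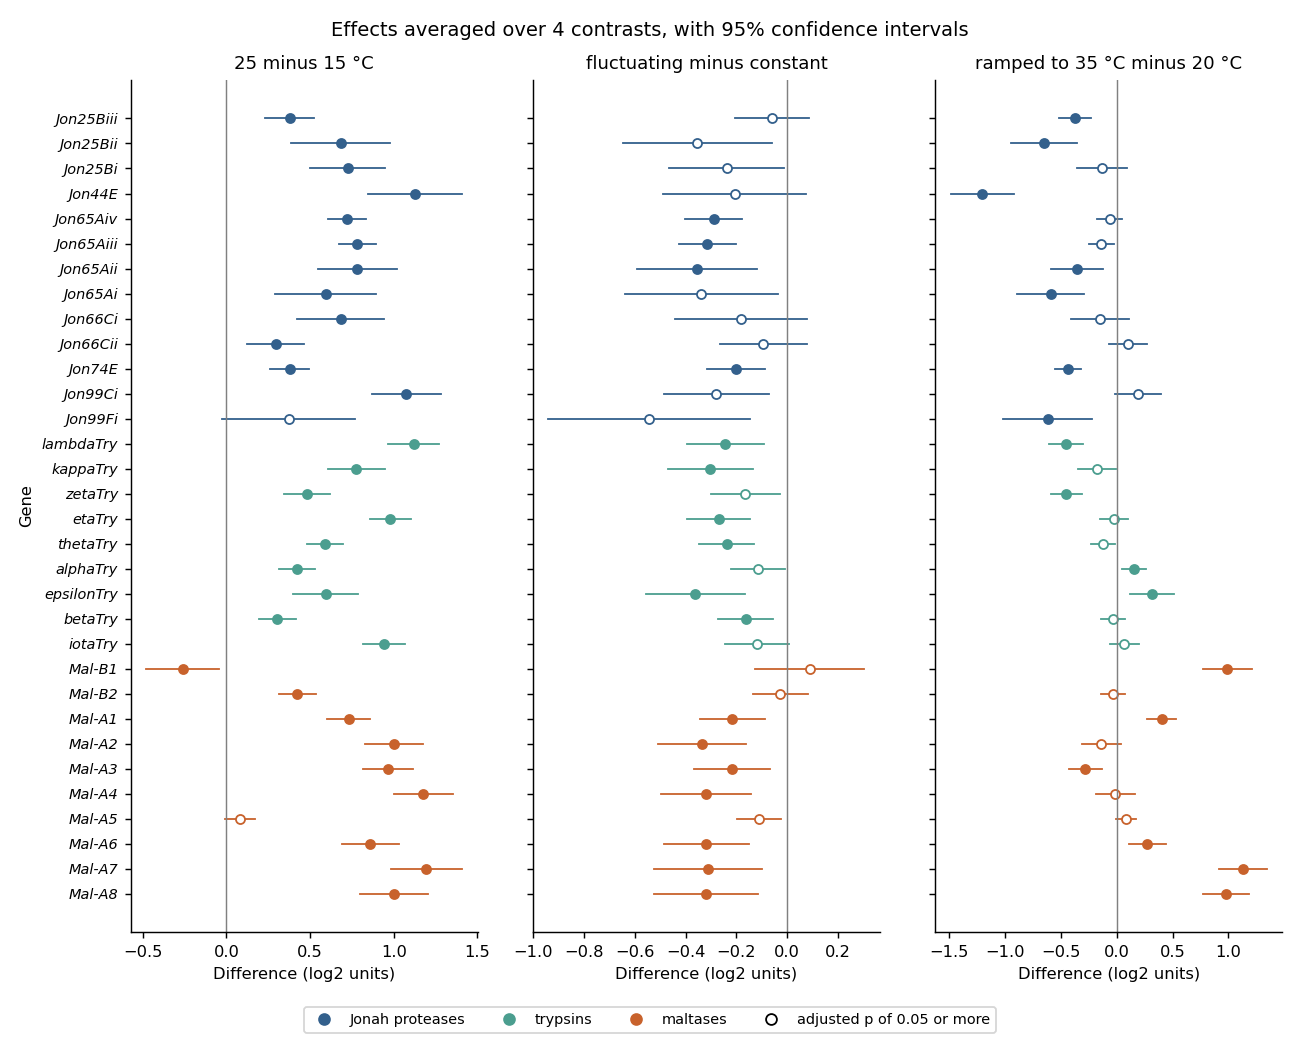
Difference in log2 units with its 95% confidence interval for each of the 32 genes, averaged over 4 pairs of groups, for mean temperature (left), regime (middle) and ramp (right); the horizontal scales differ between panels. Filled points passed an adjusted p of 0.05. The left panel lies to the right of 0 in 31 genes, the middle panel to the left in 31, and the right panel has 11 of 13 Jonah genes to the left and 6 of 10 maltases to the right.

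After the heat ramp the calls among Jonah genes were all lower and most of those among maltases were higher, although the 2 classes were not tested against each other. Averaged over the 4 kinds of flies, 7 of 13 Jonah genes were lower after the ramp to 35 °C and none was higher, whereas 5 of 10 maltases were higher and 1 was lower (limma, adjusted p under 0.05). Of the 9 trypsins 2 were higher and 2 lower. The shares over all probe sets were 16.2% higher and 17% lower. The medians were -0.35 for Jonah genes, -0.03 for trypsins and 0.18 for maltases, against 0.0048 for all probe sets. Midgut markers were split, with 3 of 8 higher and 4 lower, mex1 by 0.67 ± 0.071 and GATAe, a transcription factor gene of the midgut, by -0.56 ± 0.055.

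Jon44E had the largest decrease. In 15 °C constant flies its arrays were at 9.57, 8.64 and 9.50 before and at 7.30, 8.10 and 7.60 after the ramp, and in 15 °C fluctuating flies at 8.28, 8.77 and 8.51 before and at 7.67 and 7.0 after it. In 25 °C constant flies they were at 9.56, 9.34 and 10.03 before and at 8.93, 8.50 and 9.22 after, and in 25 °C fluctuating flies at 10.19, 9.97 and 9.92 before and at 8.34, 8.81 and 9.01 after. The 2 sets of arrays were apart in each kind of fly. Jon44E fell by 1.21 ± 0.13 on average (2.31-fold, adjusted p = 2.81e-07), and the decrease passed the test in all 4 kinds of flies, by 0.76 (adjusted p = 0.0482) to 1.57 (adjusted p = 0.000189).

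The other Jonah genes that were lower fell by 0.35 to 0.65. Jon25Bii fell by 0.65 ± 0.14 (adjusted p = 0.000909). Its arrays overlapped between 20 and 35 °C except in 15 °C constant flies, where they were at 8.40, 8.48 and 8.23 before and at 7.78, 7.48 and 7.70 after the ramp. Jon65Ai fell by 0.59 ± 0.14 (adjusted p = 0.00262), and Jon99Fi by 0.62 ± 0.19 (adjusted p = 0.0147), a call that was lost without the second array of ramped 15 °C fluctuating flies (adjusted p = 0.0753). Jon74E fell by 0.44 ± 0.055 and Jon25Biii by 0.37 ± 0.070, and in both the arrays were apart in 3 of the 4 kinds of flies. The share of all probe sets apart in only some of the 4 kinds was not counted. Jon65Aiv and Jon65Aiii, the pair with the smallest adjusted p for regime, differed by -0.06 ± 0.054 and -0.14 ± 0.054 and did not pass.

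Of the 9 trypsins 2 were called lower and 2 higher, which is near the shares of all probe sets (17% lower and 16.2% higher). lambdaTry and zetaTry, the first and the third gene of the cluster, each fell by 0.45 (SE 0.073 and 0.065; adjusted p = 3.91e-05 and 9.55e-06), and in zetaTry the arrays before and after the ramp were apart in all 4 kinds of flies. In 15 °C constant flies zetaTry was at 8.69, 8.41 and 8.56 before and at 8.29, 8.16 and 7.70 after the ramp, and in 25 °C fluctuating flies at 8.95, 8.68 and 8.71 before and at 8.29, 8.51 and 8.56 after. Of the genes further along, epsilonTry was higher by 0.32 ± 0.093 (adjusted p = 0.0112) and alphaTry by 0.15 ± 0.052 (adjusted p = 0.0272). Neither passed in any single kind of fly. The call of alphaTry was lost with array weights or quantile normalisation, and without any 1 of 4 arrays (adjusted p up to 0.0604): the first of ramped 15 °C constant, the second of ramped 15 °C fluctuating, the third of ramped 25 °C constant and the first of unramped 25 °C fluctuating flies. Without the third array of ramped 25 °C constant flies 4 trypsins were lower.

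Among maltases 3 genes had increases near 1 log2 unit, Mal-A7, Mal-A8 and Mal-B1. Mal-A7 was at 9.05, 9.97 and 9.79 before and at 11.05, 10.77 and 10.84 after the ramp in 15 °C constant flies, and at 9.34, 9.37 and 9.41 before and 10.59 and 10.87 after it in 15 °C fluctuating flies. In 25 °C constant flies it was at 11.45, 11.28 and 10.80 before and at 11.74, 11.94 and 12.13 after, and in 25 °C fluctuating flies at 10.25, 10.61 and 10.84 before and at 11.49, 11.76 and 11.80 after. All ramped arrays lay above all unramped arrays of the same flies. The average difference was 1.13 ± 0.10 (2.19-fold, adjusted p = 1.13e-08), and it passed in all 4 kinds of flies, from 0.76 in 25 °C constant flies (adjusted p = 0.00835) to 1.35 in 15 °C fluctuating flies (adjusted p = 0.000164).

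Its neighbour Mal-A8 showed the same picture. It was at 9.06, 9.64 and 9.51 before and at 10.78, 10.35 and 10.55 after the ramp in 15 °C constant flies, and at 9.94, 10.33 and 10.47 before and 10.82, 11.14 and 11.27 after it in 25 °C fluctuating flies. The average difference was 0.98 ± 0.098 (adjusted p = 5.28e-08), with a call and no overlap in each of the 4 kinds of flies. Over all probe sets the ramped arrays lay above the others in all 4 kinds in 5.51%, and below them in all 4 in 6.19%. Among the 32 genes it was 2 above (Mal-A7 and Mal-A8) and 2 below (Jon44E and zetaTry), which is close to those shares.

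Mal-B1, from the other maltase cluster, had the third large increase. In 15 °C constant flies it was at 9.67, 9.58 and 9.34 before and at 10.79, 10.71 and 10.34 after the ramp, and in 15 °C fluctuating flies at 9.45, 8.65 and 9.39 before and at 10.66 and 10.53 after. In 25 °C constant flies it was at 8.66, 9.26 and 9.18 before and at 10.15, 9.88 and 10.04 after. The ramped arrays were above the others in these 3 kinds of flies, for which no share of all probe sets was counted. They were not in 25 °C fluctuating flies, with 10.06, 9.28 and 9.66 before and 10.12, 10.02 and 10.24 after. The average difference was 0.99 ± 0.10 (adjusted p = 1.09e-07), and the difference in 25 °C fluctuating flies was 0.46 ± 0.20 (adjusted p = 0.146). Mal-B2, next to it, differed by -0.03 ± 0.052 (95% confidence interval -0.14 to 0.08).

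**Figure D4:**
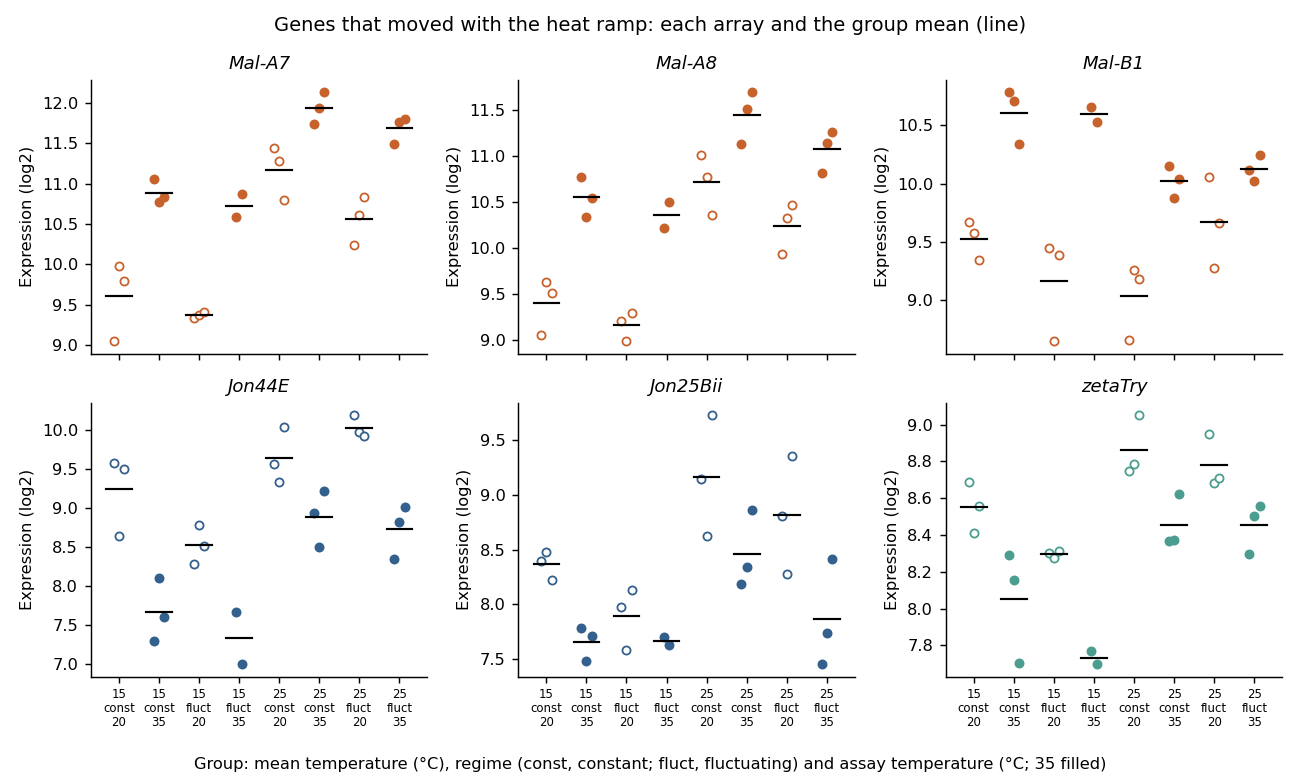
Expression (log2) of 6 genes in each array, by group, with open circles for flies frozen at 20 °C, filled circles for flies ramped to 35 °C, and a line at the group mean. In each kind of fly the filled circles lie above the open ones for Mal-A7 and Mal-A8 and below them for Jon44E and zetaTry.

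Within the Mal-A cluster the response to the ramp was not shared. Mal-A1, at one end, was higher by 0.40 ± 0.062 (adjusted p = 1.81e-05), and Mal-A6, beside Mal-A7, by 0.27 ± 0.080 (adjusted p = 0.0106). Mal-A3 was lower by -0.28 ± 0.071 (adjusted p = 0.00374). Mal-A2, Mal-A4 and Mal-A5 did not pass, with differences of -0.14, -0.01 and 0.09. With mean temperature 7 of the 8 genes were higher, and with the ramp 4 were higher and 1 was lower.

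**Figure D5:**
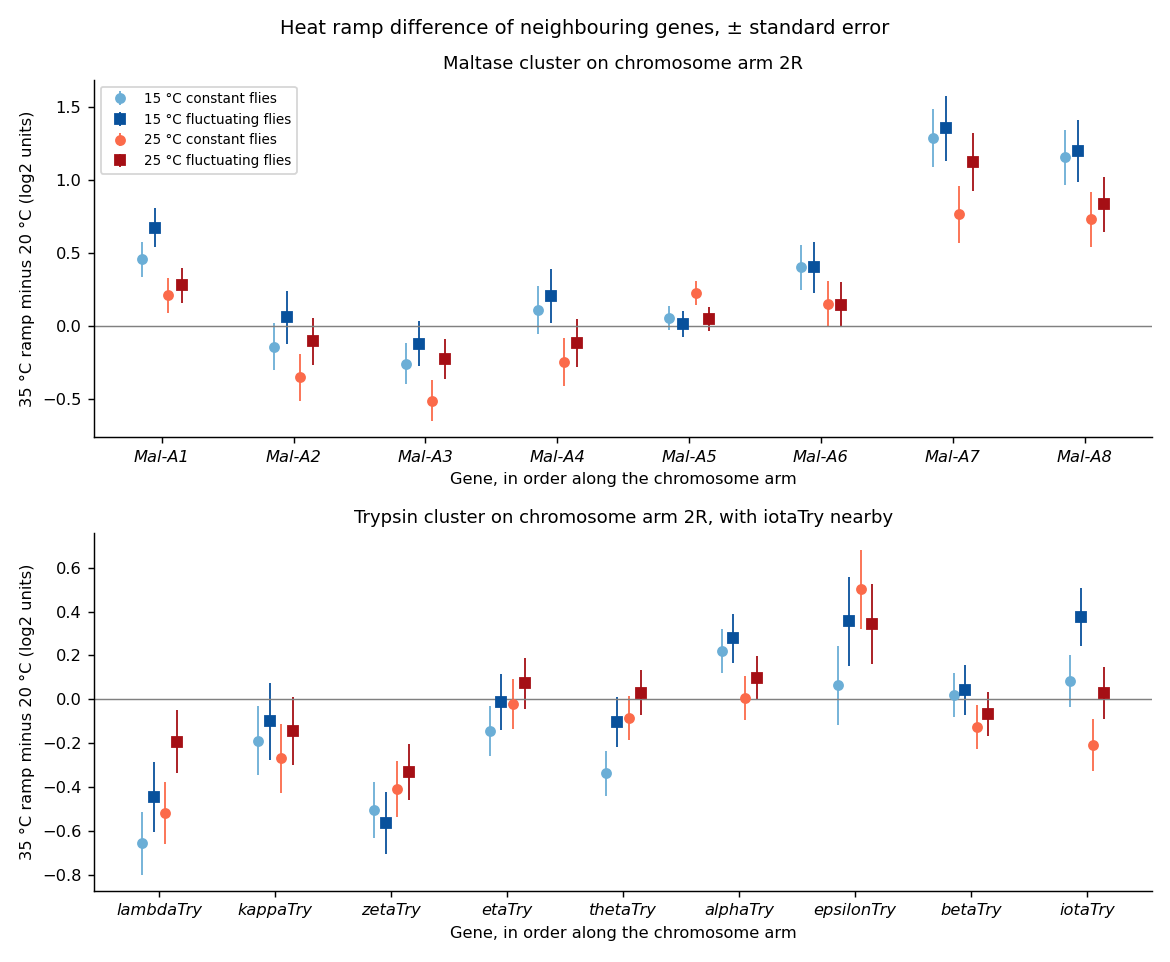
Difference between ramped and unramped flies (log2 units, ± standard error) for neighbouring genes in their order on arm 2R, with maltases above and trypsins below, and 1 symbol for each kind of fly. All 4 symbols of Mal-A7 and Mal-A8 stand above those of Mal-A2 to Mal-A5, and those of lambdaTry and zetaTry lie below 0.

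By kind of fly, the maltases called higher after the ramp were 4 of 10 in 15 °C constant, 4 in 15 °C fluctuating, 3 in 25 °C constant and 2 in 25 °C fluctuating flies, against 6.2%, 7.79%, 8.4% and 7.74% of all probe sets. Proteases called lower were 6, 3, 3 and 4 of 22, against 8.29%, 5.67%, 10.1% and 8.87%, and no protease was called higher. Their number at an unadjusted p under 0.05 and higher was 1, 2, 2 and 0, with no share of all probe sets counted at that threshold. The 1 maltase called lower was Mal-A3 in 25 °C constant flies (-0.51, adjusted p = 0.0113).

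These counts per kind of fly depended on single arrays. With 1 array left out at a time, also added after the data were seen, proteases called lower ranged from 4 to 6 in 15 °C constant, 0 to 4 in 15 °C fluctuating, 0 to 4 in 25 °C constant and 2 to 5 in 25 °C fluctuating flies. The count was 0 in 15 °C fluctuating flies without the second array of the ramped group, and 0 in 25 °C constant flies without the first or the second array of the ramped group. It was 1 in 25 °C constant flies without the first or the third unramped array. In 25 °C fluctuating flies it was 2 without the first unramped array or without the first or second ramped one. Maltases called higher ranged from 3 to 5, 4 to 4, 1 to 3 and 2 to 3, respectively, with 1 in 25 °C constant flies when the third unramped array was omitted. The call of Mal-A3 was lost without the second unramped or the first ramped array of 25 °C constant flies. In 25 °C fluctuating flies 1 maltase was called lower without their second unramped or first ramped array. 1 protease was called higher in 15 °C fluctuating flies without the first array of either 15 °C constant group or their own second unramped array, in 25 °C constant flies without the first ramped array of either 25 °C regime, and in 25 °C fluctuating flies without their first ramped array.

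None of the 32 genes passed the test of a different ramp response at 25 and 15 °C (1.1% of all probe sets did, and 6 members had an unadjusted p under 0.05) or in fluctuating and constant flies (0% did, and 2 members had). The shares of all probe sets at the unadjusted threshold were not counted. The smallest adjusted p-values were 0.304 and 0.930, and the interval for Mal-A7 between mean temperatures was -0.80 to 0.05.

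Relative to each gene's mean over the groups, the median of the 22 proteases was lowest, at -0.58, in 15 °C fluctuating flies after the ramp and highest, at 0.47, in 25 °C constant flies at 20 °C. The median of the 10 maltases was lowest, at -0.74, in 15 °C fluctuating flies at 20 °C and highest, at 0.56, in 25 °C constant flies after the ramp. The lowest group mean was in unramped 15 °C fluctuating flies for 8 of 10 maltases. In ramped 15 °C fluctuating flies, a group of 2 arrays, it was found for 8 of 13 Jonah genes and 5 of 9 trypsins, and in the unramped ones for 4 and 4. The median of the trypsins was -0.46 and -0.44 in these 2 groups. Jon44E spanned 2.69 log2 units between its highest and lowest group, Mal-A7 2.56 and Mal-A8 2.28, and Mal-A5 spanned 0.31. These levels come from the same arrays as the 3 effects above and are no separate test.

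The genes also varied together among arrays of the same group. Over the deviations of the 23 arrays from their group means, the median Pearson correlation was 0.41 over the 78 pairs of Jonah genes, 0.46 over the 36 pairs of trypsins and 0.34 over the 45 pairs of maltases. Between classes it was 0.39 for trypsins with maltases, 0.29 for Jonah genes with trypsins and 0.12 for Jonah genes with maltases, and members with all other genes of mean 4 or more had a median of -0.0013. The closest pair was Jon65Aiii and Jon65Aiv (0.94), followed by Mal-A7 and Mal-A8 (0.92) and Mal-A1 and Mal-A6 (0.91), all of them neighbours or members of 1 cluster. Outside a cluster the closest were alphaTry and Mal-A1 (0.89). The lowest values were -0.47 for Jon25Biii with Mal-A7 and -0.46 for Jon44E with Mal-A2. Without the array with egg shell transcripts, which was added after the data were seen, the medians were 0.44 for pairs of Jonah genes, 0.44 for trypsins, 0.41 for maltases, 0.40 for trypsins with maltases, 0.38 for Jonah genes with trypsins and 0.20 for Jonah genes with maltases, and alphaTry with Mal-A1 was at 0.76. The points of these correlations share RNA pools and arrays, and the genes are not independent of each other.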

How the data were processed

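The authors hybridised RNA of whole males to 24 Affymetrix Drosophila Genome 2.0 arrays, and the deposited values are log2 expression levels per probe set from GC-RMA, the tool named in their processing notes. Scanner files were not used here. Arrays have no read depth, and the number of arrays limits the precision. The groups were taken from the labels. The values were tested as deposited: 18952 probe sets, less 183 controls, gave 18769, and limma 3.58.1 in R 4.3.3 was fitted to 23 arrays with 8 group means, so that all groups shared 1 estimate of the spread. Contrasts were the 4 pairs for each factor, their average, and 3 averaged interactions, with Benjamini-Hochberg adjustment over the 18769 probe sets and a threshold of 0.05. The 3 factors use the same arrays, so their results are not independent of each other.

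A gene was represented by the probe set with the highest mean among those with that single symbol. For each averaged effect the 4 proteases and 3 maltases with the largest change past the threshold and of 1 sign in all pairs were named, then members at the ends of a range, of opposite sign to their family, or next to a named gene. Of each other gene list at most 2 genes that rose and 2 that fell were named. Members, gene lists and this rule were chosen with earlier results of these data known. Midgut and other tissue markers were lists of genes known from those tissues. Alternatives were all 24 arrays, 22 arrays, a block for replicate number, an intensity trend, array weights, median centring, quantile normalisation, a minimum mean of 4, and each array left out. The fit was tested on simulated data. The median correlation of the deviations of same-numbered arrays was 0.0012 (range -0.37 to 0.49), against 0.0032 for different numbers. Figures were drawn with matplotlib 3.10.9.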

Additional observations from a re-analysis of the deposited data

How the results depend on the processing

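Of 64 member effects called on 23 arrays, 64 stayed called in the same direction with an intensity trend, with median centring and with a minimum mean of 4, and 62 with 22 arrays. Array weights kept 62 and quantile normalisation 61. With either of these 2, 1 protease, a trypsin, was higher after the ramp. On 22 arrays and with quantile normalisation 0 maltases were lower at 25 °C, as the call of Mal-B1 was lost. With all 24 arrays, the failed one included, 0 proteases (0 Jonah genes, 0 trypsins) and 0 maltases were lower under fluctuation, where 16 of all probe sets were called against 2858 on 23 arrays. In the same setting, for the ramp, 4 proteases (3 Jonah genes and 1 trypsin) were lower and 0 higher, 0 trypsins were higher, and 0 maltases were higher or lower. 4 differences changed sign there: for mean temperature Mal-B1 at 0.0098, and for the ramp alphaTry, Mal-A1 and Mal-A6 at -0.23, -0.14 and -0.14 (adjusted p from 0.65 to 0.98). Using the lowest probe set of a gene changed nothing, since each member had 1.

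With each array left out in turn, the proteases higher at 25 °C numbered 21 to 22 (Jonah genes 12 to 13, trypsins 9 to 9), the maltases higher 8 to 8 and lower 0 to 1. Under fluctuation 6 to 15 proteases were lower (Jonah genes 2 to 9, trypsins 4 to 7) and 4 to 7 maltases. After the ramp 8 to 12 proteases were lower and 1 to 3 higher, with 6 to 8 Jonah genes lower and 0 to 1 higher, and 2 to 4 trypsins lower and 1 to 2 higher. Maltases were 5 to 5 higher and 1 to 1 lower.

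The labels number the replicates, and the arrays gave no clear sign of pairing by number, although this check cannot exclude it. Of 77 same-numbered pairs 10 had a correlation above 0.1, and 5 of 23 arrays correlated best with an array of their own number. A fit with the replicate number as a block kept 63 of the 64 calls and lost that of Mal-A3 under fluctuation, which left 6 maltases lower. Of 96 counts of calls in single pairs it left 91 within 1.5 times, with 1 trypsin called lower under fluctuation in 15 °C flies at 20 °C. 92 counts stayed so on 22 arrays, 90 with the arrays of the 2 groups alone, and 66 on 24 arrays. With each array left out, added after the data were seen, 2117 of 2208 did.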

Other observations

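Other enzyme genes measured in the same arrays, not all of them digestive, were described with lists chosen with earlier results of these data known. Of 8 measured carbohydrate enzymes other than maltases, 7 were higher at 25 °C (median 0.87), and after the ramp 3 were higher and 4 lower. Apart from Amyrel and tobi these were LManI to LManVI, so the counts mostly describe lysosomal alpha-mannosidase genes. LManIII and LManVI, genes of lysosomal alpha-mannosidases, fell by 1.18 ± 0.080 and 0.99 ± 0.094 after the ramp, while LManII was higher by 0.29 ± 0.056. Of 6 other serine proteases 5 were higher at 25 °C, among them Ser6 by 1.01 ± 0.10. Try29F, a trypsin-like gene whose name placed it outside the 32, was higher by 0.91 ± 0.13 at 25 °C and by 0.77 ± 0.13 after the ramp (adjusted p = 5.15e-05, limma). The 3 measured lysozymes and the 3 lipases were all higher at 25 °C, and Lip4 fell by 1.34 ± 0.060 after the ramp, while the lysozymes did not pass there.

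Of 13 measured genes of nutrient regulation 11 were higher at 25 °C (median 0.35), led by Ilp2, an insulin-like peptide gene, at 1.01 ± 0.069. After the ramp 5 were higher and 4 lower. The sugar-responsive transcription factor gene sug fell by 1.02 ± 0.12 and AkhR, the adipokinetic hormone receptor gene, by 0.87 ± 0.060, and InR, the insulin receptor gene, was higher by 0.55 ± 0.052. Of 7 sugar transporters 3 were higher and 3 lower at 25 °C. Beside the counts of all these lists, 28.9% of all probe sets were higher and 27.1% lower at 25 °C. After the ramp 16.2% were higher and 17% lower.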
